A study of Mus musculus with 6 samples.

Results

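The 38 hypoxia and glycolysis genes described here were grouped by what they are known to do: sensors of oxygen, genes that low oxygen is known to induce, glucose transporters, the enzymes of glycolysis and the genes that handle pyruvate and lactate. The set was drawn up from textbook biology with earlier results of these tumors known, and its rule uses no measured value. All 38 were found by identifier and symbol among the 17312 genes of the deposited table, and 37 of them were among the 13873 genes with enough signal to be tested (3 or more tumors with an FPKM of 1 or higher). FPKM is a read or fragment count scaled by gene length and library size. Where 3 values stand together they are tumors 1, 2 and 3 of a genotype, and paired means give SS18-SSX1 first. The samples were 6 leg tumors of mice, 3 for each genotype. Mice of 1 group carried a Cre-lox inducible allele of the synovial sarcoma fusion SS18-SSX1 and mice of the other carried such an allele of SS18-SSX2. Both groups received TATCre, a cell-permeant form of the Cre recombinase, injected into the pre-tibial soft tissue, and tumors were taken about 1 year later without any treatment. Age and strain are not given in the labels, and neither is whether the 3 tumors of a genotype came from 3 mice, so the tests gauge the spread among tumors, which may not be that among animals. No normal tissue and no tumor without a fusion was analysed here, so the only contrast is SS18-SSX2 against SS18-SSX1.

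When oxygen is plentiful, prolyl hydroxylases such as Egln1 and Egln3 mark the transcription factor subunits Hif1a and Epas1 for destruction by the Vhl ubiquitin ligase. When oxygen is scarce the subunits persist, pair with Arnt and bind a short core sequence (ACGTG or GCGTG) near genes for vessel growth, glucose uptake, glycolysis and lactate export. Hif1a activity is set mainly at the protein level, so the messenger RNA of the sensors says little about it, and the transcripts of the targets are the usual readout.

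Several features of the tumors bear on every result. Depth, read from the step sizes of low FPKM values, was 7285853 reads in SS18-SSX2 tumor 2 and between 13316363 and 17546227 reads in the other 5 tumors. The 24 skeletal muscle fibre markers summed to 12361 FPKM (SS18-SSX1 tumor 2), 5564 FPKM (SS18-SSX2 tumor 2) and 127 to 537 FPKM (the other 4), so 1 tumor of each genotype was rich in muscle RNA. The 8 mast cell markers summed to 2519 FPKM in SS18-SSX1 tumor 3 and to between 13.8 and 99.4 FPKM elsewhere. Of the 6 synovial sarcoma markers, 5 were in the table. Tle1, the best known of them, lay at 23.3 to 25.7 FPKM for SS18-SSX1 and 29.8 to 37.0 FPKM for SS18-SSX2. The others varied more over the 6 tumors: Bcl2 3.32 to 10.7 FPKM, Krt8 0.953 to 16.9, Krt18 4.77 to 23.7 and Krt19 0.0371 to 2.27. The Y-linked gene Ddx3y was at 28.2 to 35.2 FPKM in the SS18-SSX1 tumors and at no more than 0.0148 FPKM in the SS18-SSX2 tumors, while Xist was at 3.58 to 7.03 FPKM and at 56.2 to 175.4 FPKM, so the sex of the mice and the fusion cannot be told apart. In bulk tissue, fewer cells of a type and less RNA per cell cannot be told apart either.

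No gene of the set passed the test between the fusions. limma called 0 of 37 at a Benjamini-Hochberg adjusted p under 0.05, where it called 9 of all 13873 tested genes (0.0649%; 3 genes without SS18-SSX2 tumor 3). The count stayed at 0 under all 13 alternatives, and the lowest adjusted p that any of the 37 genes reached in them was 0.268. At an unadjusted limma p under 0.05 there was 1 of 37, Bnip3l, beside 4.97% of all tested genes. The log2 fold change of FPKM + 1, SS18-SSX2 minus SS18-SSX1, was above 0 for 18 genes and below 0 for 19, with a median of -0.03 beside 0.01 over all tested genes. Without the muscle-rich SS18-SSX1 tumor 2 that median was 0.21. The genotypes did not overlap for 1 tested gene that was higher with SS18-SSX2, Epas1, beside 4.97% of all tested genes, and for 1 that was lower, Bnip3l, beside 3.76%. Neither count stands above its background.

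**Figure D1:**
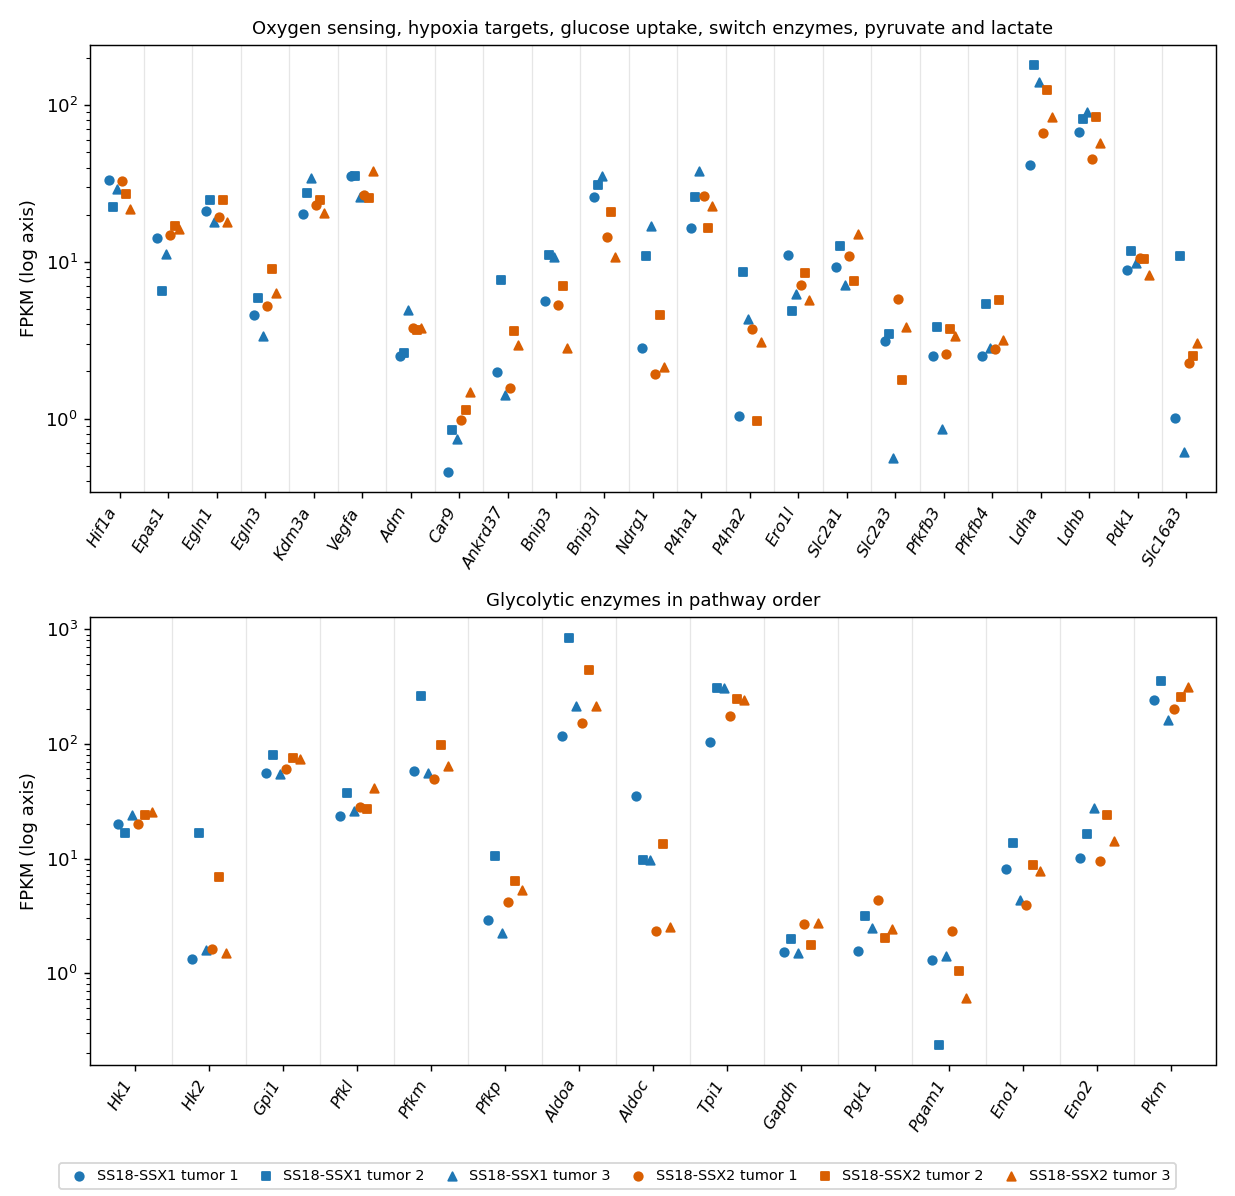
FPKM (log axis) of the 38 genes in each of the 6 tumors, with SS18-SSX1 in blue, SS18-SSX2 in orange and a marker shape for each tumor number; the upper panel holds the sensors, targets, transporters and pyruvate genes and the lower panel the 15 glycolytic enzymes. Levels run from under 1 FPKM (Car9 and Pgam1 among them) to 845.6 FPKM (Aldoa), and blue and orange points overlap for all genes but Epas1, Bnip3l and Car9.

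**Figure D2:**
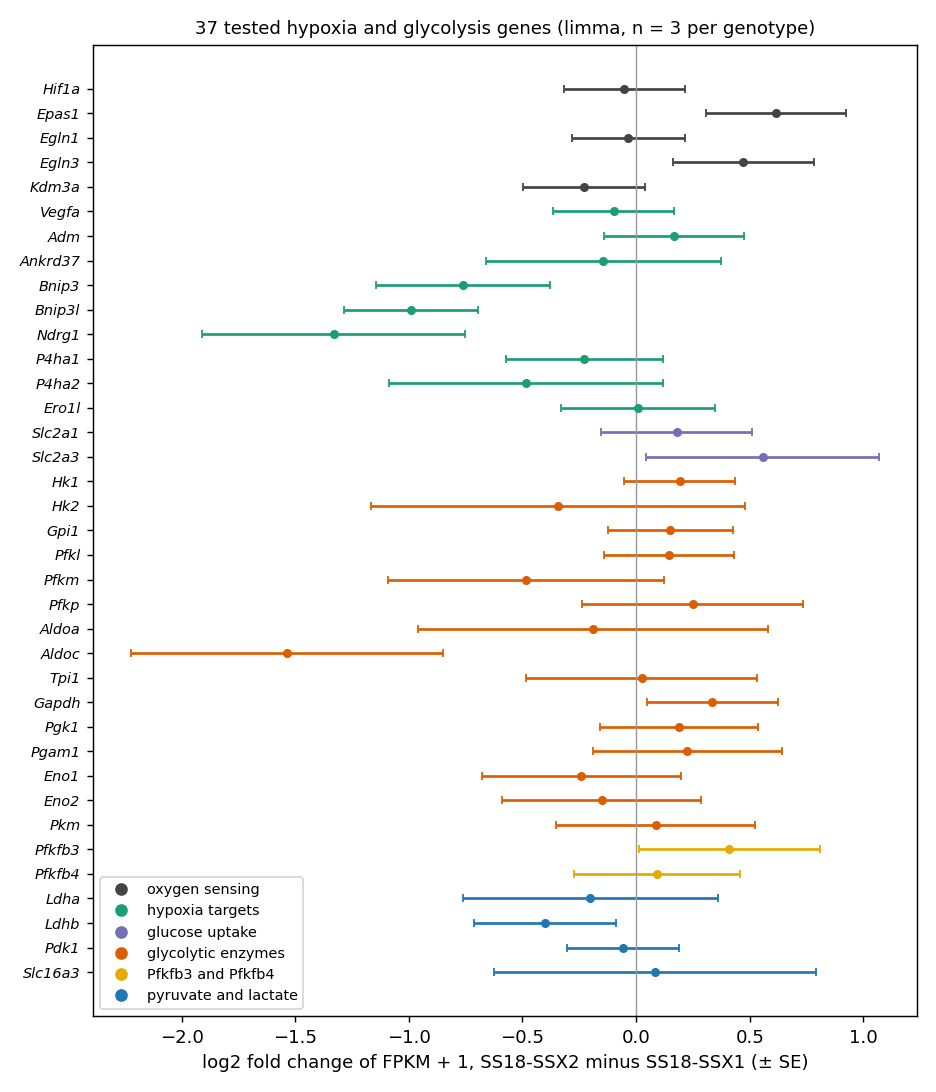
Log2 fold change of FPKM + 1, SS18-SSX2 minus SS18-SSX1, with its standard error from limma (n = 3 per genotype) for the 37 tested genes, coloured by role. Estimates lie between -1.54 (Aldoc) and 0.62 (Epas1), and none passed the adjusted threshold.

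Hif1a, Egln1 and Kdm3a, of the oxygen sensing genes, were among the steadiest of the set. Hif1a, the oxygen-labile subunit, was at 28.2 ± 5.48 FPKM for SS18-SSX1 and 27.2 ± 5.46 FPKM for SS18-SSX2 (SD, n = 3 each). Its highest value over the 6 tumors was 1.52 times its lowest. Egln1, the main prolyl hydroxylase, was at 21.3 ± 3.43 and 20.8 ± 3.61 FPKM, and Kdm3a, a histone demethylase that is itself a hypoxia target, at 27.4 ± 7.05 and 22.7 ± 2.18 FPKM. None of these 3 differences passed the test.

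Epas1 (chr17:86753700-86833410 on GRCm38), the subunit also known as Hif2a and prominent in endothelium, had 14.1, 6.47 and 11.2 FPKM in SS18-SSX1 tumors 1 to 3 and 14.9, 17.0 and 16.3 FPKM in SS18-SSX2 tumors 1 to 3. All SS18-SSX2 tumors were above all SS18-SSX1 tumors, but SS18-SSX1 tumor 1 came within 1 FPKM of them. The log2 fold change was 0.62 ± 0.31 (SE), with a limma adjusted p of 0.997 and a range of 0.711 to 1 over the alternatives. The estimate was 0.33 without SS18-SSX1 tumor 2 and 0.29 without both muscle-rich tumors. The summed level of the 10 endothelial markers was 36.0 to 118.6 FPKM for SS18-SSX1 and 40.4 to 131.8 FPKM for SS18-SSX2, lowest in both muscle-rich tumors, and its part in the Epas1 values was not tested.

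Egln3, the hydroxylase most strongly induced by hypoxia, had 4.60, 5.92 and 3.38 FPKM for SS18-SSX1 and 5.22, 8.97 and 6.31 FPKM for SS18-SSX2. The ranges overlapped, since SS18-SSX2 tumor 1 lay below SS18-SSX1 tumor 2. The log2 fold change was 0.47 ± 0.31 (SE, limma adjusted p = 0.997), and 0.28 without SS18-SSX2 tumor 2.

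Of the 11 tested HIF regulators outside the set, 0 were called, 3 were above 0 and 8 below it, with a median log2 fold change of -0.19. Without overlap, 0 were higher and 2 lower with SS18-SSX2, beside 4.97% and 3.76% of all tested genes. Rbx1, the RING subunit of the Vhl ligase, was at 38.1 ± 8.54 FPKM for SS18-SSX1 and 21.6 ± 4.51 FPKM for SS18-SSX2 without overlap (log2 fold change -0.78 ± 0.28, SE, limma adjusted p = 0.840). Vhl itself was at 51.2 ± 16.5 and 35.1 ± 5.84 FPKM, and Elob, the elongin subunit that binds it, at 143.3 ± 52.0 and 111.3 ± 16.0 FPKM. Crebbp, a coactivator of Hif1a, was at 42.4 ± 9.74 and 46.0 ± 11.7 FPKM. None of the last 3 separated the genotypes.

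The estimates of the hypoxia targets lay on both sides of 0, most of them below it, and none passed the test. Of the 9 tested targets, 2 had estimates above 0 and 7 below, with a median log2 fold change of -0.23. Under quantile normalization Ero1l moved below 0. Vegfa, the vessel growth factor, was the most abundant of them at 32.2 ± 5.28 FPKM for SS18-SSX1 and 30.2 ± 6.95 FPKM for SS18-SSX2. It varied 1.50-fold over the 6 tumors, with its lowest value, 25.4 FPKM, for SS18-SSX2 tumor 2 and its highest, 38.1 FPKM, for SS18-SSX2 tumor 3.

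The 3 targets with the lowest estimates were the mitophagy receptors Bnip3l and Bnip3 and the stress-responsive gene Ndrg1. Bnip3l (chr14:66985239-67008877 on GRCm38), which also clears mitochondria from maturing red cells, had 25.9, 31.0 and 35.3 FPKM for SS18-SSX1 and 14.3, 20.9 and 10.8 FPKM for SS18-SSX2. Every SS18-SSX2 tumor was below every SS18-SSX1 tumor, on 589 to 2390 reads per tumor. The log2 fold change was -0.99 ± 0.29 (SE), with an unadjusted p of 0.0103 and an adjusted p of 0.693 in limma, and over the alternatives the estimate stayed between -1.23 and -0.78 and the adjusted p between 0.364 and 1. The 7 erythroid markers, whose cells are rich in Bnip3l, summed to 18.1, 91.8 and 735.3 FPKM for SS18-SSX1 and to 160.9, 73.4 and 572.9 FPKM for SS18-SSX2. Those sums overlap between genotypes, and the part of red cells in the Bnip3l values was not tested.

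Bnip3 had 5.64, 11.1 and 10.8 FPKM for SS18-SSX1 and 5.32, 7.03 and 2.83 FPKM for SS18-SSX2. The genotypes overlapped through SS18-SSX1 tumor 1, and the log2 fold change was -0.76 ± 0.38 (SE, limma adjusted p = 0.997). Ndrg1, which is induced by hypoxia and by differentiation, had 2.80, 10.9 and 17.0 FPKM for SS18-SSX1 and 1.93, 4.58 and 2.12 FPKM for SS18-SSX2. Here too SS18-SSX1 tumor 1 lay within the range of the other genotype, and 8.81-fold separated the highest from the lowest tumor. Its log2 fold change was -1.33 ± 0.58 (SE), with a limma adjusted p of 0.997. Without SS18-SSX1 tumor 3 the estimate for Ndrg1 was -0.86, and without SS18-SSX2 tumor 3 that for Bnip3 was -0.46. SS18-SSX1 tumor 3, the mast cell rich tumor, had the highest Bnip3l and Ndrg1 of all, and the part of mast cells in these values was not tested.

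Car9, the tumor-surface carbonic anhydrase often used as a hypoxia marker, was close to the detection limit and was not tested. It had 0.456, 0.851 and 0.742 FPKM for SS18-SSX1 and 0.986, 1.13 and 1.48 FPKM for SS18-SSX2, which rest on 14 to 49 reads per tumor. The genotypes did not overlap. With no filter on low values its log2 fold change was 0.39 ± 0.22 (SE), with a limma adjusted p of 0.995.

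The other targets scattered without a common order. The collagen prolyl hydroxylase P4ha1 was at 26.7 ± 10.7 FPKM for SS18-SSX1 and 21.8 ± 4.99 FPKM for SS18-SSX2. Its relative P4ha2 was at 4.64 ± 3.79 and 2.59 ± 1.44 FPKM, and spanned 8.88-fold over the 6 tumors. Ero1l, an oxidase of protein folding, was at 7.38 ± 3.26 and 7.12 ± 1.42 FPKM. The peptide hormone gene Adm was at 3.36 ± 1.38 and 3.75 ± 0.0623 FPKM, and Ankrd37 at 3.71 ± 3.48 and 2.71 ± 1.04 FPKM. Each of these differences was smaller than the SD among the SS18-SSX1 tumors.

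Of 21 further hypoxia-induced genes that were tested, 0 were called, 9 were above 0 and 12 below, with a median log2 fold change of -0.10. Without overlap, 2 were higher and 0 lower with SS18-SSX2, beside 4.97% and 3.76% of all tested genes. Hmox1, the haem-degrading oxygenase, had 6.32, 13.5 and 17.3 FPKM for SS18-SSX1 and 50.7, 35.3 and 77.3 FPKM for SS18-SSX2. The groups did not overlap, and the log2 fold change was 2.08 ± 0.42 (SE), with an unadjusted p of 0.00123 and an adjusted p of 0.413 in limma. Hmox1 is also high in macrophages, whose 10 markers summed to 49.6, 355.9 and 387.9 FPKM for SS18-SSX1 and to 146.9, 626.6 and 161.9 FPKM for SS18-SSX2. The part of macrophages in the Hmox1 values was not tested. Lox, a collagen cross-linking enzyme, was at 1.90 ± 2.16 and 9.77 ± 7.72 FPKM with overlap (limma adjusted p = 0.810). The most abundant genes of that list, Fam162a at 65.8 ± 24.2 and 53.1 ± 7.61 FPKM and Bhlhe40 at 54.3 ± 39.0 and 53.9 ± 8.71 FPKM, did not separate the genotypes.

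Promoter sequence was set beside these values because Hif1a and Epas1 bind the core sequence near their target genes. No motif was used to choose the 38 genes. RefSeq promoter windows on GRCm38.p6 (250 bases before to 50 after a start site) were found for 33 of the 38 genes, 49 windows in all. ACGTG, searched on both strands, was in 25 of the 49 windows (51.0%) beside 19.6% of all 32851 windows of that length. By gene, 22 of the 33 (66.7%) had it in at least 1 window, beside 21.8% of all 27025 genes. The set had more windows per gene (49 for 33 genes, beside 32851 for 27025), which gives each gene more places for a match. The part of window number in the share by gene was not tested. GCGTG, counted separately although both can overlap by 1 base, was in 55.1% of the windows beside 32.4% of all. The windows of these genes held 61.4% G and C on average beside 53.8% for all, and the part of base composition in the motif shares was not tested. Stretches of 60 bases from 5 promoters are given, from a target, glycolytic enzymes and lactate genes that had a match, in the sense of the gene and with each match to ACGTG or its reverse complement CACGT in capitals.
Bnip3 (chr7:138909582-138909641, minus strand): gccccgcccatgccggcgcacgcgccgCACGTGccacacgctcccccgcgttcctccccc
Ldha (chr7:46845735-46845794, plus strand): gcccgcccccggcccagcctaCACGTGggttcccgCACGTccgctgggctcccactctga
Slc16a3 (chr11:120949007-120949066, plus strand): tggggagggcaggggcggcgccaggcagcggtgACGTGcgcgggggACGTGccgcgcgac
Hk2 (chr6:82774475-82774534, minus strand): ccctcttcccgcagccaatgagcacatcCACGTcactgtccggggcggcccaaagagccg
Pgk1 (chrX:106186932-106186991, plus strand): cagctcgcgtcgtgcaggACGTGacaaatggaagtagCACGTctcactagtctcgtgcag
The CACGTG of Bnip3 and the first match of Ldha read the same on both strands and so count on each. The 5 genes printed were chosen among the 22 with a match. Bnip3, Ldha, Hk2 and Slc16a3 had their highest value in the muscle-rich SS18-SSX1 tumor 2, and Pgk1 in SS18-SSX2 tumor 1. The next highest value was in SS18-SSX1 tumor 3 for Bnip3 and Ldha. It was in the muscle-rich SS18-SSX2 tumor 2 for Hk2 and in SS18-SSX2 tumor 3 for Slc16a3. The levels of Bnip3 and Pgk1 are uncertain because of shared sequence, described below. A match is a description of the letters and not a measured binding site.

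Glucose enters through Slc2a1, the widespread transporter Glut1, and Slc2a3, the high-affinity Glut3 of neurons. Slc2a1 was at 9.67 ± 2.82 FPKM for SS18-SSX1 and 11.2 ± 3.73 FPKM for SS18-SSX2, and Slc2a3 at 2.38 ± 1.59 and 3.80 ± 2.01 FPKM. Both estimates were above 0 (log2 fold changes of 0.18 and 0.56), and neither passed the test (limma adjusted p = 0.997 for both). Without SS18-SSX1 tumor 3 they were -0.0050 for Slc2a1 and 0.071 for Slc2a3, and without both muscle-rich tumors 0.61 and 1.18. Without SS18-SSX2 tumor 3 the Slc2a1 estimate was -0.043. Slc2a4, the insulin-sensitive muscle and fat transporter outside the set, was at 22.7 FPKM in SS18-SSX1 tumor 2 and at 5.95 to 7.80 FPKM in the other 5 tumors.

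The 15 glycolytic enzymes showed larger differences between tumors than between genotypes. Of the 15, 0 were called, 9 estimates were above 0 and 6 below, with a median of 0.09 on the log2 scale. Aldoa moved to 0.06 under quantile normalization. Averaged as log2(FPKM + 1), the 15 genes stood at 4.88 and 4.59 in the muscle-rich tumors of SS18-SSX1 and SS18-SSX2, above the 4.03 to 4.24 of the other 4 tumors. Over all 38 genes, 14 had their highest value in SS18-SSX1 tumor 2, and 8 in SS18-SSX1 tumor 3.

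Aldoa, the aldolase of muscle and of most growing cells, was the most abundant of the 38 genes. It had 117.1, 845.6 and 216.2 FPKM for SS18-SSX1 and 152.8, 444.8 and 212.7 FPKM for SS18-SSX2. The highest value of each genotype was in its muscle-rich tumor. Pfkm, the muscle phosphofructokinase, had 57.7, 261.0 and 56.2 FPKM for SS18-SSX1 and 49.5, 97.5 and 63.6 FPKM for SS18-SSX2. Hk2, the inducible hexokinase of muscle and many cancers, had 1.32, 16.6 and 1.60 FPKM for SS18-SSX1 and 1.61, 6.94 and 1.51 FPKM for SS18-SSX2. These 3 genes shared 1 pattern, with the same 2 tumors at the top in the same order.

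The muscle-type enzymes outside the set had that pattern with far larger differences. Eno3, the muscle enolase, had 15.1, 459.1 and 20.6 FPKM for SS18-SSX1 and 5.14, 185.0 and 8.01 FPKM for SS18-SSX2. Pygm, the muscle glycogen phosphorylase, had 5.51, 242.1 and 9.40 FPKM and 2.67, 84.5 and 3.07 FPKM. Pgam2, the muscle phosphoglycerate mutase, reached 170.4 and 63.9 FPKM in the muscle-rich tumors and at most 8.69 FPKM in the others. Pgam2, and Ckm in the plot of muscle-rich tumors, were chosen after their values were seen. With both muscle-rich tumors left out, the log2 fold change moved from -0.19 to 0.18 for Aldoa, from -0.34 to 0.06 for Hk2 and from -0.48 to -0.021 for Pfkm. Without SS18-SSX1 tumor 2 alone it was 0.61 for Aldoa, 0.60 for Hk2 and 0.24 for Pfkm. When each tumor's muscle level entered the limma fit, the estimates were 0.25, 0.18 and -0.13 in the same order.

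**Figure D3:**
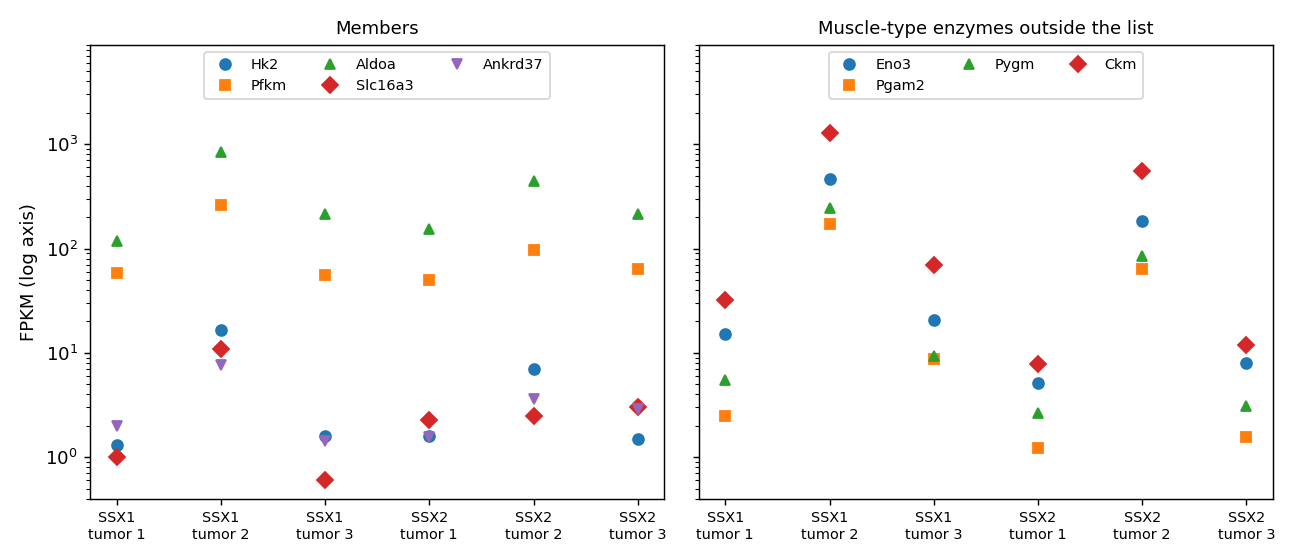
FPKM (log axis) in each of the 6 tumors, left for 5 of the 38 genes and right for 4 muscle-type enzymes outside the set. Hk2, Pfkm and Aldoa and all 4 muscle-type enzymes have their highest value in SS18-SSX1 tumor 2 and their next in SS18-SSX2 tumor 2, while Slc16a3 has its next in SS18-SSX2 tumor 3.

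Aldoc, the aldolase of brain, stood apart from this order and had the largest SD of log2(FPKM + 1) of the 38 genes. It had 35.1, 9.73 and 9.75 FPKM for SS18-SSX1 and 2.32, 13.5 and 2.54 FPKM for SS18-SSX2. SS18-SSX1 tumor 1 was far above the rest, and SS18-SSX2 tumor 2 lay above SS18-SSX1 tumors 2 and 3. The log2 fold change was -1.54 ± 0.69 (SE), with an unadjusted p of 0.0566 and an adjusted p of 0.997 in limma. Without SS18-SSX1 tumor 1 the estimate was -0.95. Without both muscle-rich tumors it was -2.52 with an adjusted p of 0.268 in limma, the lowest of a range of 0.268 to 1 over the alternatives.

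Tpi1 and Pkm carried most of the remaining signal. Tpi1, the triose phosphate isomerase, had 104.5, 304.8 and 309.6 FPKM for SS18-SSX1 and 176.0, 246.8 and 239.3 FPKM for SS18-SSX2. SS18-SSX1 tumor 1 was the lowest, and its genotype held both extremes. Pkm, the pyruvate kinase whose splice forms M1 and M2 these gene-level values cannot separate, had 239.7, 355.3 and 160.4 FPKM for SS18-SSX1 and 203.7, 255.3 and 314.0 FPKM for SS18-SSX2. Both genes overlapped fully between genotypes, and their log2 fold changes of 0.02 and 0.09 had SEs of 0.51 and 0.44. Gpi1 was at 63.7 ± 14.7 and 70.1 ± 8.12 FPKM, Hk1, the constitutive hexokinase, at 20.3 ± 3.70 and 23.2 ± 2.71 FPKM, and Pfkl, the liver phosphofructokinase, at 28.9 ± 7.13 and 32.0 ± 7.83 FPKM. The enolases Eno1 and Eno2 were at 8.63 ± 4.64 and 6.84 ± 2.57 FPKM and at 18.0 ± 8.76 and 15.9 ± 7.35 FPKM.

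Gapdh, Pgk1 and Pgam1, enzymes of 3 successive steps of the pathway, were listed at much lower levels than their neighbours in it. Gapdh, the glyceraldehyde phosphate dehydrogenase used as a reference gene in many tissues, had 1.53, 2.00 and 1.49 FPKM for SS18-SSX1 and 2.70, 1.76 and 2.71 FPKM for SS18-SSX2, on 53 to 162 reads. Its ranges overlapped through the muscle-rich tumors, and the log2 fold change was 0.33 ± 0.29 (SE, limma adjusted p = 0.997). Pgk1, the X-linked phosphoglycerate kinase, was at 2.41 ± 0.802 and 2.93 ± 1.23 FPKM on 33 to 141 reads, and Pgam1, the phosphoglycerate mutase, at 0.984 ± 0.647 and 1.33 ± 0.894 FPKM. Tpi1, the step before Gapdh, averaged 230.2 FPKM over the 6 tumors, against 2.03 FPKM for Gapdh, 2.67 FPKM for Pgk1 and 1.16 FPKM for Pgam1. These 3 means were the lowest of the 15 glycolytic enzymes.

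The same 3 genes shared the largest percentage of their coding windows with other annotated genes. Each coding sequence was read in windows of 50 bases, and a window counted as shared when it occurred exactly in a transcript of another gene of GENCODE release 21. All windows of Pgam1 (4 pseudogenes) and Pgk1 (5 pseudogenes) were shared, and 93.5% of those of Gapdh, with 222 other genes of which 215 are pseudogenes. Over the 38 genes, 20 shared no window, and 7 shared more than 50%: the 3 above, Bnip3 (76.4%), Eno1 (75.1%), Bnip3l (72.7%) and Pkm (53.7%). The labels do not record how reads with several matches were counted, so the levels of these 7 genes are uncertain, and the part of shared sequence in them was not tested. Pkm, with 53.7% of its windows shared, averaged 254.7 FPKM and was not among the low genes. Across the 38 genes the share of windows and the level are a description, since both belong to the same genes.

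Gapdh and its processed pseudogene Gm13394 show how alike a copy can be. Gm13394 shares 901 windows with Gapdh, the most of its pseudogenes in the table, and the next, Gm3222, shares 561. Coding positions 301 to 390 of Gapdh (gene at chr6:125161715-125166467, minus strand) are printed with the same stretch of Gm13394 (chr2:28933610-28934609, minus strand), from GENCODE transcripts on GRCm38. The capital marks the 1 base that differs over 1000 aligned bases.
Gapdh: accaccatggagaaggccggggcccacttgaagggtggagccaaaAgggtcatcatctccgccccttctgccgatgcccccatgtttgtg
Gm13394: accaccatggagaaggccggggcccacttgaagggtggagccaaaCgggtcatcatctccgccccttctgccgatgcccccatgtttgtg
Gm13394 was listed at 32.9 FPKM in SS18-SSX2 tumor 2, above Gapdh itself, and at 0 to 0.532 FPKM in the other 5 tumors. The 20 Gapdh pseudogenes in the table summed to 10.4, 19.9 and 5.94 FPKM for SS18-SSX1 and to 11.9, 44.8 and 15.7 FPKM for SS18-SSX2. Each sum was above the FPKM of Gapdh in that tumor. A pseudogene counted if it shared any window, and these shared from 6 to 901. FPKM is per length, and Gapdh has 4133 annotated exon bases but 1002 coding bases, so these values do not compare read numbers. Pgk1 and its copy Pgk1-rs7 were identical over 1253 aligned bases, and no Pgk1 copy was in the table.

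Copies of Eno1, Ldha and Bnip3l were read in the same way. These copies, like Gm13394, were chosen after their values were seen. Eno1b, which shares 1014 coding windows with Eno1, was listed at 0, 0.0413 and 0 FPKM for SS18-SSX1 and at 2.70, 3.52 and 9.39 FPKM for SS18-SSX2. All SS18-SSX2 tumors were above all SS18-SSX1 tumors, with a log2 fold change of 2.46 ± 0.42 (SE), an unadjusted p of 0.000439 and an adjusted p of 0.290 in limma. In SS18-SSX2 tumor 3 Eno1b exceeded the 7.85 FPKM of Eno1. Gm11814, a pseudogene of Ldha, shares only 53 of the 1176 coding windows of Ldha. It had 0.243, 1.17 and 9.32 FPKM for SS18-SSX1 and 8.59, 17.9 and 21.6 FPKM for SS18-SSX2 (limma adjusted p = 0.763). The ranges overlapped through SS18-SSX1 tumor 3. Bnip3l-ps, the copy of Bnip3l, was at 0.114 to 1.09 FPKM, far below its parent in every tumor.

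**Figure D4:**
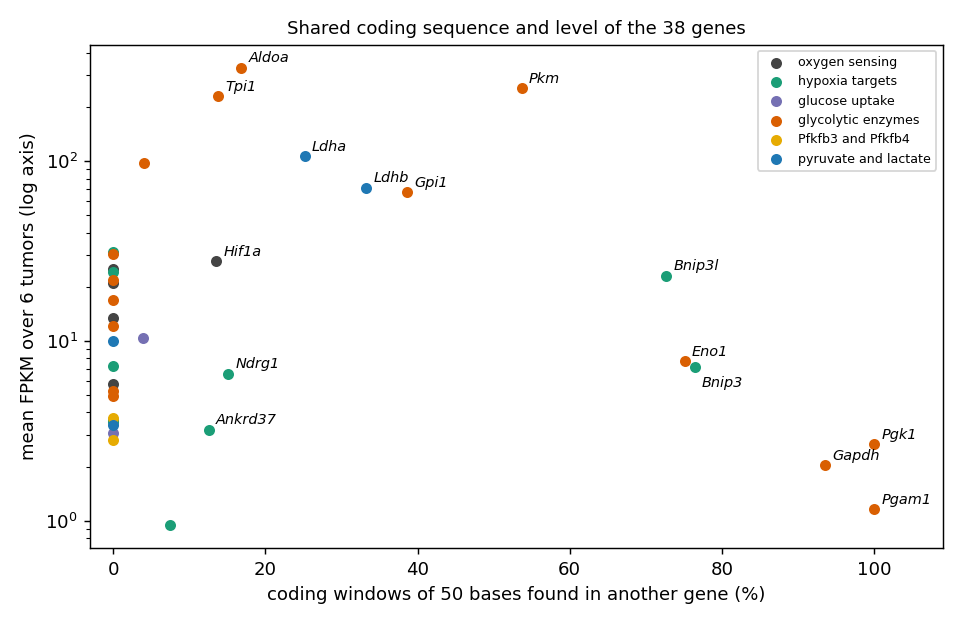
Mean FPKM over the 6 tumors (log axis) against the percentage of 50-base coding windows that occur exactly in another gene, 1 point per gene, coloured by role and named where over 10%. Pgk1, Gapdh and Pgam1 lie at 93.5% to 100% with means of 1.16 to 2.67 FPKM, while Pkm lies at 53.7% and 254.7 FPKM.

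The enzymes of fructose 2,6-bisphosphate, which set the pace of phosphofructokinase, were low in all tumors. Pfkfb3, the strongly kinase-biased form, was at 2.41 ± 1.50 FPKM for SS18-SSX1 and 3.23 ± 0.591 FPKM for SS18-SSX2. Pfkfb4 was at 3.58 ± 1.57 and 3.87 ± 1.59 FPKM. Tigar, which lowers fructose 2,6-bisphosphate and stands outside the set, was at 5.53 ± 2.67 and 9.17 ± 2.29 FPKM (log2 fold change 0.70 ± 0.37, SE, limma adjusted p = 0.997). None of these 3 genes passed the test. Without SS18-SSX1 tumor 3 the log2 fold change of Pfkfb3 moved from 0.41 to 0.026. Of the 9 tested isoforms and glycogen genes outside the set, 0 were called, 3 were above 0 and 6 below. Among them 1 was higher and 0 lower with SS18-SSX2 without overlap, beside 4.97% and 3.76% of all tested genes.

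At the end of the pathway, Ldha, the lactate dehydrogenase subunit that favours lactate, had 41.7, 180.4 and 140.8 FPKM for SS18-SSX1 and 66.3, 125.8 and 83.7 FPKM for SS18-SSX2. SS18-SSX1 tumors held both extremes. Ldhb, the heart subunit that favours pyruvate, had 67.8, 81.7 and 90.6 FPKM for SS18-SSX1 and 45.1, 83.5 and 57.2 FPKM for SS18-SSX2. SS18-SSX2 tumor 2 lay among the SS18-SSX1 tumors, and the log2 fold change was -0.40 ± 0.31 (SE, limma adjusted p = 0.997). Without SS18-SSX2 tumor 1 the Ldhb estimate was -0.20, and without SS18-SSX2 tumor 2 it was -0.64. Slc16a3, the lactate exporter Mct4, had 1.00, 10.9 and 0.611 FPKM for SS18-SSX1 and 2.25, 2.50 and 3.03 FPKM for SS18-SSX2. It varied 17.9-fold, the widest ratio of the 38 genes, with both ends of that range among SS18-SSX1 tumors, while the SS18-SSX2 tumors lay close together. Pdk1, the kinase that shuts pyruvate dehydrogenase, was at 10.2 ± 1.43 and 9.75 ± 1.27 FPKM and was 1 of the steadiest genes, with a 1.42-fold range.

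Of 12 further pyruvate and lactate genes tested, 0 were called, 1 was above 0 and 11 were below. The exception, Pdha1, the X-linked catalytic subunit that Pdk1 inhibits, had 55.8, 68.2 and 53.7 FPKM for SS18-SSX1 and 128.9, 92.0 and 94.5 FPKM for SS18-SSX2. The genotypes did not overlap (log2 fold change 0.81 ± 0.28, SE, limma adjusted p = 0.823). Pdp1, the phosphatase that opposes Pdk1, was at 11.3 ± 2.25 and 7.99 ± 1.24 FPKM, also without overlap. Bsg, the chaperone of the lactate transporters, was at 406.0 ± 170.7 and 258.0 ± 51.9 FPKM with overlap. Neither difference passed the test. Of the 12 genes, 1 was higher and 1 lower with SS18-SSX2 without overlap, beside 4.97% and 3.76% of all tested genes.

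Isoform shares compared members within a tumor, as the percentage of the summed FPKM of their family. Hk2 made up 49.9% and 22.6% of Hk1 and Hk2 in the muscle-rich tumors of SS18-SSX1 and SS18-SSX2, and 5.58% to 7.41% in the other 4. Pfkm was the main phosphofructokinase in every tumor, at 57.9% to 84.6%, again highest in the muscle-rich tumors. The share of Pfkp, the platelet form, was 3.45%, 3.38% and 2.64% with SS18-SSX1 and 5.11%, 4.89% and 4.82% with SS18-SSX2. This was the 1 of 8 shares whose genotypes did not overlap, with means of 3.15% ± 0.450 and 4.94% ± 0.153 (SD, n = 3) and an exact two-sided permutation p of 0.1. That is the smallest p that 3 against 3 tumors can give, and the Benjamini-Hochberg value over the 8 shares was 0.8.

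Aldoc made up 23.0% of Aldoa and Aldoc in SS18-SSX1 tumor 1 and 1.14% to 4.31% in the other 5 tumors. Ldhb made up 61.9% of Ldha and Ldhb in that same tumor, against 31.2% to 40.6% elsewhere, and the 3 SS18-SSX2 tumors lay within 39.9% to 40.6%. Eno2, the neuronal enolase, made up 86.4% of Eno1 and Eno2 in SS18-SSX1 tumor 3 and 54.9% to 73.2% elsewhere, a share that inherits the uncertainty of Eno1. Slc2a3 made up 7.30% of both transporters in that tumor and 18.9% to 34.5% elsewhere. These 4 shares therefore set single SS18-SSX1 tumors apart, and their exact permutation p-values lay between 0.4 and 1.

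**Figure D5:**
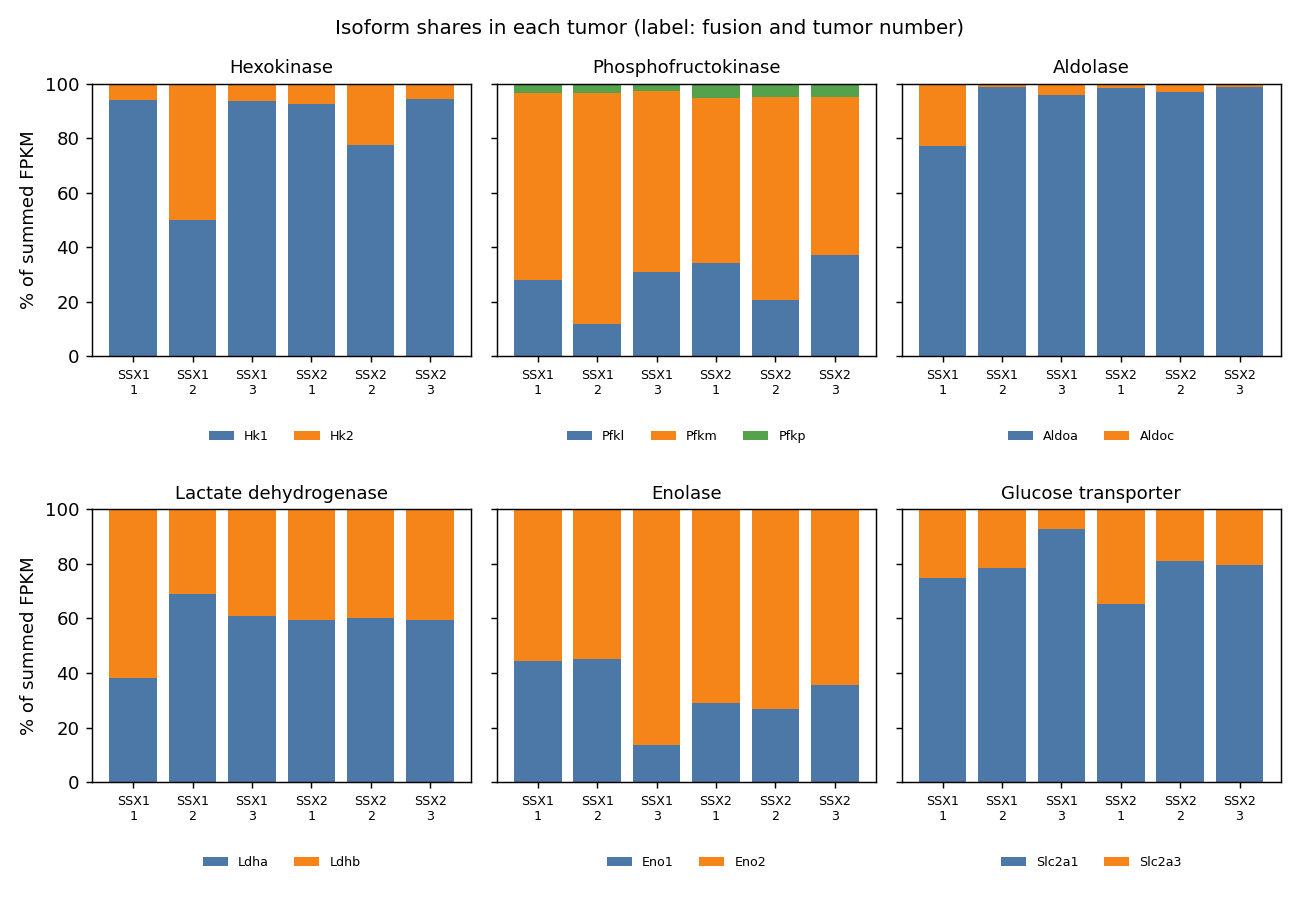
Share of each isoform in the summed FPKM of its family (percent, stacked bars from 0 to 100) in each of the 6 tumors. Hk2 takes 49.9% and 22.6% in the muscle-rich tumors, Aldoc 23.0% and Ldhb 61.9% in SS18-SSX1 tumor 1, and the thin Pfkp band is 2.64% to 3.45% with SS18-SSX1 and 4.82% to 5.11% with SS18-SSX2.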

How the data were processed

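The authors deposited 1 table of FPKM values, with 1 column per tumor, from total RNA of snap-frozen tumors depleted of ribosomal RNA, per the labels' protocols. Per the submitters' processing notes the tools and builds include Novoalign 2.08.03 and mm10, with no role stated. For the counting tool, gene models, strand handling and reads with several matches, the method was not given in the sources used here. Columns were matched to tumors by description and identifiers to GENCODE release 21 on GRCm38.

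The 38 genes and all lists were chosen with earlier results of these data known. A gene entered the test when 3 or more tumors had an FPKM of 1 or higher. The test was limma 3.58.1 (R 4.3.3, eBayes with trend) on log2(FPKM + 1), SS18-SSX2 minus SS18-SSX1, two-sided, adjusted by Benjamini-Hochberg over all 13873 tested genes at 0.05. Fold changes on this scale understate those of low genes. Isoform shares were compared by exact permutation in scipy 1.17.1, and tables were made with pandas 2.3.3.

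Values in every tumor are given for 16 genes: the 8 with the smallest p, those without overlap between genotypes, the 6 of highest mean and the 6 of largest log2 SD. Of each other pathway list up to 4 genes were named, 2 by p and 2 by mean, and cell type lists mostly by their sums. Depth was set from 1475 single-exon genes, of whose low values 76.6% to 82.9% came out as whole reads within 0.02. The reads of 18 of the 38 genes came out whole with their annotated exon length, and reads are given for such genes alone. Sequence sharing was searched in annotated transcripts only. The limma fit, the depth estimate and the window search were tested on simulated data. The simulated limma changes were larger than any estimate in the set, so they do not show whether changes of that size would be called. The alternatives changed the pseudocount, the filter on low values and the scaling, added a replicate block, left out each tumor in turn and, chosen after seeing the data, left out both muscle-rich tumors or added the muscle level as a covariate.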

Additional observations from a re-analysis of the deposited data

How the results depend on the processing

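In each of the 13 alternatives limma called 0 of the 37 tested genes of the set (38 with no filter on low values, where Car9 entered), and the lowest adjusted p of any of them was 0.268, without both muscle-rich tumors. Over all genes, 9 calls became 5 with a pseudocount of 0.1, 20 without both muscle-rich tumors, and 3 (without SS18-SSX2 tumor 3) to 11 when each tumor was left out in turn. The tumor number as a replicate block gave 4 calls, 0 of them in the set. After each genotype's mean was subtracted from every tested gene, the deviations of same-numbered tumors correlated at 0.38, 0.31 and -0.28. Those of differently numbered tumors correlated at -0.44 to 0.23. The labels do not say what a number shares, so the numbers were not taken to pair tumors. The median log2 fold change of the tested genes, -0.03, became 0.12 with the muscle level as a covariate and -0.071 to 0.21 on leaving out each tumor, the last without SS18-SSX1 tumor 2. With a tumor left out, the other genotype's spread stands in part for that of the remaining 2 tumors. For 14 of the 37 tested genes the sign of the log2 fold change was the same in all 13 alternatives, and for 23 it crossed 0 at least once. Rescaled to TPM it did so for Hif1a (0.020), Egln1 (0.037) and Pdk1 (0.011). After quantile normalization it did so for Ero1l (-0.044), Aldoa (0.064) and Slc16a3 (-0.060). Without both muscle-rich tumors it did so for Vegfa (0.080), Ankrd37 (0.24), P4ha2 (0.42), Ero1l (-0.34), Hk2 (0.058), Aldoa (0.18) and Pgam1 (-0.026). With the muscle level as a covariate it did so for Egln1 (0.049), Ankrd37 (0.12), Ero1l (-0.036), Hk2 (0.18), Aldoa (0.25) and Ldha (0.036). Leaving out each tumor in turn moved 23 genes across 0: Hif1a (-0.21 to 0.092), Egln1 (-0.16 to 0.078), Vegfa (-0.27 to 0.0085), Ankrd37 (-0.50 to 0.42), P4ha1 (-0.52 to 0.052), P4ha2 (-1.09 to 0.031), Ero1l (-0.22 to 0.31), Slc2a1 (-0.043 to 0.41), Hk2 (-0.89 to 0.60), Pfkl (-0.043 to 0.33), Pfkm (-0.86 to 0.24), Pfkp (-0.10 to 0.81), Aldoa (-0.81 to 0.61), Tpi1 (-0.49 to 0.29), Pgk1 (-0.052 to 0.36), Pgam1 (-0.084 to 0.46), Eno1 (-0.61 to 0.12), Eno2 (-0.49 to 0.19), Pkm (-0.20 to 0.37), Pfkfb4 (-0.16 to 0.36), Ldha (-0.84 to 0.21), Pdk1 (-0.14 to 0.044) and Slc16a3 (-0.45 to 0.99). The difference in share moved from -8.91 to 0.292 for Hk2 and from 3.90 to -3.32 for Eno2 without both muscle-rich tumors, and on leaving out each tumor it ranged from -16.2 to 5.64 for Hk2, -1.45 to 14.3 for Eno2 and -10.2 to 5.15 for Ldhb (percentage points). None of these genes or shares passed a test, and the cause was not tested. With 3 tumors per genotype, exact permutation cannot go below 0.1, and Car9 rests on few reads.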
